A study of Mus musculus with 8 samples.

Results

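Pyruvate dehydrogenase joins glycolysis to the mitochondrion by turning pyruvate into acetyl-CoA, and the citric acid cycle then oxidises that acetyl group and hands its electrons to the respiratory chain. In pancreatic beta cells this oxidation of glucose carbon raises the ratio of ATP to ADP, which closes ATP-sensitive potassium channels and starts insulin release. The transcripts of 9 nuclear genes of this route were measured: Pdha1, Pdhb, Dlat and Dld of the dehydrogenase complex, and Cs, Idh3a, Ogdh, Fh1 and Mdh2 of the cycle. They were found by matching Ensembl gene IDs to these symbols, and all 9 were present among the 35596 genes in the table.

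The RNA came from islets, the endocrine cell groups of the pancreas. All mice were males of C57BL/6J, a standard inbred strain. The 4 weight-cycled (WC) libraries came from mice given 60% HFD for 9 weeks, 10% LFD for another 9 weeks, and 60% HFD during the last 9 weeks. The 4 obese libraries came from mice that had 10% LFD for 9 weeks ahead of 18 weeks on 60% HFD (HFD and LFD are high-fat and low-fat diets). The question is how the islets differ by feeding history at the end of the diets, and neither group is a lean control. The last unbroken stay on HFD also differed, 9 weeks in WC against 18 weeks in obese mice, and cannot be told apart from the period of weight loss and regain. Islets were freed with collagenase P and picked by hand. The labels do not say whether libraries came from separate animals, and the spread that the p-values measure may therefore be technical.

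Values are TPM, a level per transcript length relative to the total of its library, so levels can be compared between genes, but sequencing depth is unknown. Markers of beta cells were present in every library, with a summed level of 784923 to 812606 TPM over 8 markers in WC and 789616 to 803454 TPM in obese islets, and 5 of the 8 were called lower. The summed level of 5 macrophage markers was 5.01 to 8.30 TPM in WC and 8.48 to 11.3 TPM in obese islets, with 2 called lower and 3 with a mean under 1 TPM. For 4 T and B cell markers it was 0.407 to 1.01 TPM in WC and 1.15 to 2.15 TPM in obese islets, again without overlap, with the 1 tested called lower. For 5 alpha cell markers the sums overlapped, at 3015 to 8467 TPM in WC and 4527 to 12271 TPM in obese islets, with 1 called higher. For 5 endothelial markers it was 17.8 to 39.9 TPM in WC and 30.5 to 53.0 TPM in obese islets, with 1 called lower, and for 8 acinar markers 2950 to 6890 TPM in WC and 2345 to 4369 TPM in obese islets, with 0 called. No marker of these lists was at 0 in all libraries, and their part in the results below was not tested. For comparison, the test described below called 23.9% of all tested genes lower and 1.21% higher. Levels lower in WC islets without overlap were seen for 21.1% of all tested genes, and higher ones for 1.3%. In whole islets, fewer cells of a type and less RNA per cell cannot be told apart. WC replicate 1 scored -7.98 on the first principal component (66.8% of the variance), inside the range of the obese libraries (-23.2 to -5.03), while the other 3 WC libraries scored 13.8 to 30.6.

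Transcripts of 5 of the 9 genes, Idh3a, Dlat, Cs, Dld and Mdh2, were lower in WC islets, 0 were higher, and Pdha1, Pdhb, Ogdh and Fh1 did not pass the test. The test was limma on log2(TPM + 1) over the 8127 genes with a mean of at least 1 TPM, with Benjamini-Hochberg adjusted p under 0.05, and fold changes are WC minus obese on that scale. Of all tested genes, 23.9% were called lower and 1.21% higher. The median log2 fold change was -0.38 over the 9 members and -0.26 over all tested genes, so a lower level in WC islets was common across the table. Summed over the 9 genes, the level was 134.8, 112.9, 134.0 and 139.4 TPM in WC replicates 1 to 4, against 168.0, 163.7, 156.9 and 147.4 TPM in obese replicates 1 to 4. The groups did not overlap in this sum, in which Mdh2 had the largest part. Taken gene by gene, 21.1% of all tested genes were also lower in WC islets without overlap. The sum was not compared with sums over other sets of genes.

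**Figure D1:**
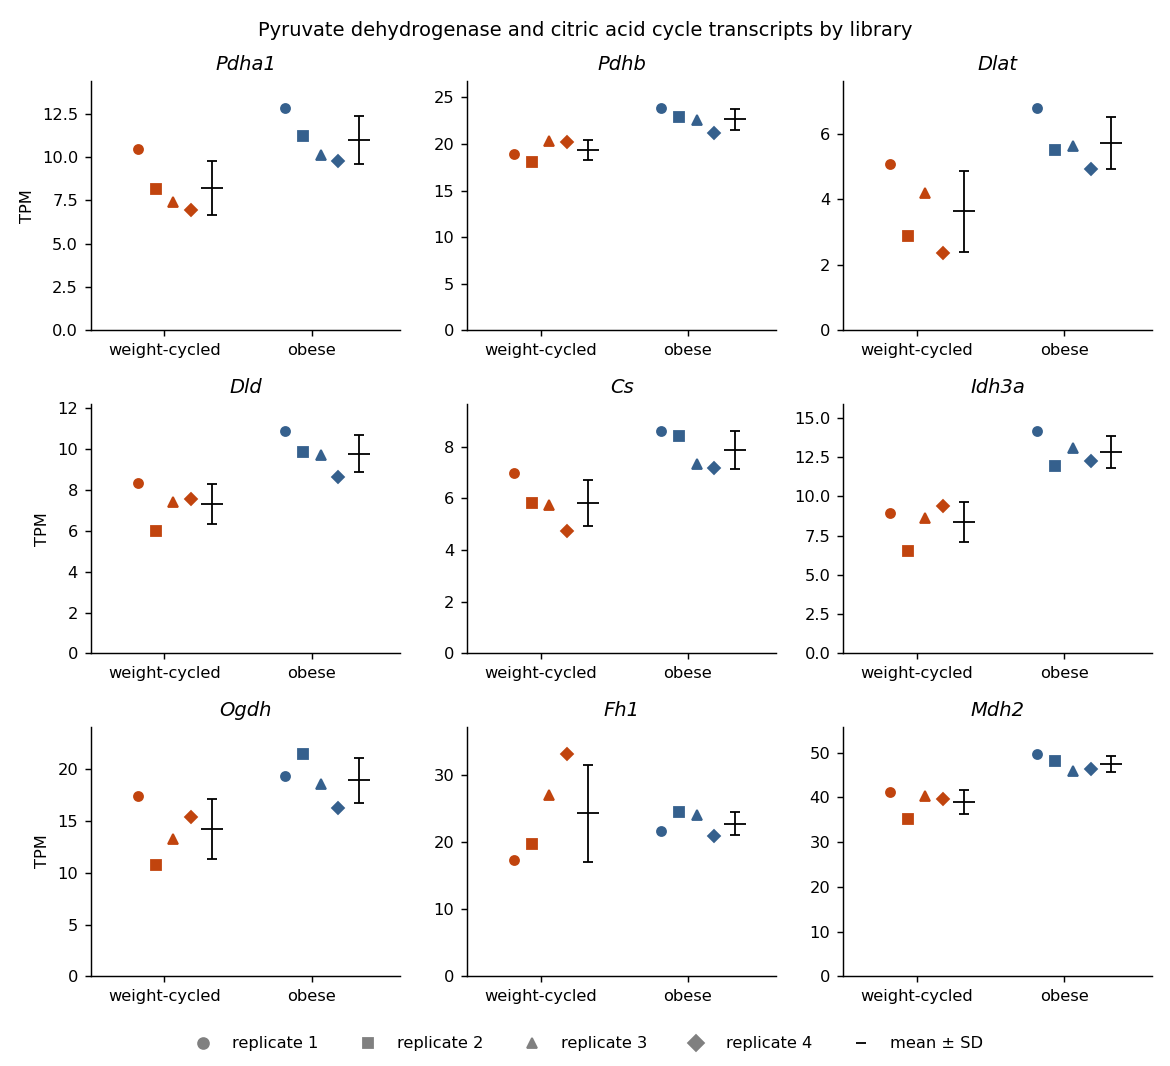
TPM (vertical axes, from 0) of the 9 genes in each WC and obese library, with marker shapes for the replicate number and bars for the mean ± SD of 4 libraries. Pdhb, Dld, Cs, Idh3a and Mdh2 do not overlap between the groups, Pdha1, Dlat and Ogdh overlap through WC replicate 1, and Fh1 ranges from 17.3 to 33.1 TPM in WC against 20.9 to 24.4 TPM in obese islets.

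The first enzyme of pyruvate dehydrogenase, which decarboxylates pyruvate, pairs an alpha subunit made from Pdha1 (ENSMUSG00000031299.10, chromosome X, 160122209 to 160138413, minus strand, build mm10) with a beta subunit made from Pdhb (ENSMUSG00000021748.9, chromosome 14, 8165996 to 8173025, minus strand). The alpha subunit carries the serines that pyruvate dehydrogenase kinases phosphorylate to switch the complex off. Pdha1 was at 10.5, 8.17, 7.39 and 6.94 TPM in WC replicates 1 to 4 and at 12.9, 11.2, 10.1 and 9.75 TPM in obese replicates 1 to 4. Replicate 1 of the WC group lay between obese replicates 2 and 3, and the other 3 WC libraries lay below every obese library. Its log2 fold change was -0.38 (SE 0.130, limma adjusted p = 0.0501), just outside the threshold. Pdhb was at 18.9, 18.0, 20.3 and 20.2 TPM in WC and 23.9, 22.8, 22.6 and 21.2 TPM in obese libraries, without overlap. Its difference, -0.22 (SE 0.0849, limma adjusted p = 0.0696), did not pass, and its 95% interval was -0.40 to -0.030. The gene Map3k15 overlaps Pdha1 on the other strand, and at 3.30 ± 1.58 TPM in WC and 5.18 ± 0.938 TPM in obese islets (SD, n = 4 each) it was not called (log2 fold change -0.59, limma adjusted p = 0.0760). Whether the counting used strand is not given in the sources used here. Pdha2, the copy of Pdha1 used in the testis, was listed at 0 in all 8 libraries.

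Dlat (ENSMUSG00000000168.9, chromosome 9, 50634633 to 50659780, minus strand) encodes the second enzyme, the lipoate-carrying core that makes acetyl-CoA. It had the lowest level of the 9 genes, 5.09, 2.89, 4.19 and 2.35 TPM in WC replicates 1 to 4 against 6.79, 5.50, 5.63 and 4.92 TPM in obese replicates 1 to 4. The groups overlapped only through WC replicate 1, which lay above obese replicate 4. Dlat fell by 0.57 on the log2 scale (SE 0.175, limma adjusted p = 0.0422). Dld (ENSMUSG00000020664.10, chromosome 12, 31331277 to 31351453, minus strand) encodes the third enzyme, which reoxidises lipoate and is shared with the 2-oxoglutarate dehydrogenase complex. It was at 8.36, 6.01, 7.40 and 7.58 TPM in WC and at 10.9, 9.85, 9.71 and 8.66 TPM in obese libraries. All 4 WC values were below all 4 obese values, and Dld fell by 0.38 (SE 0.112, limma adjusted p = 0.0409).

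Cs (ENSMUSG00000005683.8, chromosome 10, 128337734 to 128362479, plus strand) encodes citrate synthase, which joins acetyl-CoA to oxaloacetate at the entry of the cycle. It was at 6.97, 5.82, 5.75 and 4.75 TPM in WC and at 8.63, 8.40, 7.32 and 7.19 TPM in obese replicates 1 to 4, without overlap. Cs fell by 0.39 (SE 0.117, limma adjusted p = 0.0413), and Csl, a related citrate synthase-like gene, was at no more than 0.0156 TPM in any library. Idh3a (ENSMUSG00000032279.11, chromosome 9, 54586334 to 54604661, plus strand) encodes the catalytic alpha subunit of the NAD-linked isocitrate dehydrogenase, which releases carbon dioxide and makes NADH. It was at 8.94, 6.51, 8.59 and 9.41 TPM in WC replicates 1 to 4, against 14.2, 11.9, 13.1 and 12.2 TPM in obese replicates 1 to 4. The highest WC value was 9.41 TPM and the lowest obese value 11.9 TPM. Idh3a fell by 0.57 (SE 0.117, 95% interval -0.83 to -0.32, limma adjusted p = 0.0302), about as far as Dlat, and which of these genes had the lower fold change depended on the scale, with Dlat at -0.69 and Idh3a at -0.62 for a pseudocount of 0.1.

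Ogdh (ENSMUSG00000020456.17, chromosome 11, 6291633 to 6356642, plus strand) encodes the first enzyme of the 2-oxoglutarate dehydrogenase complex, which makes succinyl-CoA and is known to be activated by calcium. It was at 17.5, 10.7, 13.2 and 15.4 TPM in WC and at 19.4, 21.5, 18.6 and 16.3 TPM in obese replicates 1 to 4. Here too the overlap came from WC replicate 1 alone, and the difference of -0.40 (SE 0.139, limma adjusted p = 0.0511) lay just outside the threshold. Mdh2 (ENSMUSG00000019179.10, chromosome 5, 135778480 to 135790398, plus strand), the mitochondrial malate dehydrogenase that regenerates oxaloacetate, had the highest level, 41.3, 35.1, 40.2 and 39.5 TPM in WC against 49.8, 48.1, 45.8 and 46.3 TPM in obese libraries. The groups did not overlap, and Mdh2 fell by 0.28 (SE 0.0844, limma adjusted p = 0.0414).

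Fh1 (ENSMUSG00000026526.14, chromosome 1, 175600374 to 175625635, minus strand) encodes fumarase, which hydrates fumarate to malate one step before Mdh2. It was at 17.3, 19.6, 26.9 and 33.1 TPM in WC replicates 1 to 4, against 21.6, 24.4, 24.0 and 20.9 TPM in obese replicates 1 to 4. WC replicates 1 and 2 were below every obese library and WC replicates 3 and 4 above every one, so the SD was 7.19 TPM in WC against 1.76 TPM in obese islets (n = 4 each). The mean difference of 0.05 (SE 0.169, limma adjusted p = 0.821) had a 95% interval of -0.32 to 0.42, which leaves a change in either direction possible. Kmo, which overlaps Fh1 on the other strand, was at no more than 0.0217 TPM.

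The order of the mean levels was the same in WC and in obese islets: Mdh2, Fh1, Pdhb, Ogdh, Idh3a, Pdha1, Dld, Cs and Dlat, from high to low. Mdh2 stood clear of Fh1, and Ogdh clear of Idh3a, in both groups. The libraries of Fh1 and Pdhb overlapped in level in both groups, as did those of Idh3a and Pdha1 and those of Pdha1 and Dld. Pdhb and Ogdh overlapped only among obese libraries, and the pairs Dld with Cs and Cs with Dlat only among WC libraries. WC replicate 2 held the lowest value of 5 of the 9 genes and WC replicate 4 of 3, while obese replicate 1 held the highest value of 7. Groups did not overlap for 5 of the 9 genes, each lower in WC islets, and 21.1% of all tested genes had the same pattern, with 1.3% higher without overlap.

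Over the 8 libraries, log2 levels of the members other than Fh1 varied together, with a median Pearson correlation of 0.84 over their 28 pairs (range 0.63 to 0.97). For the 8 pairs that include Fh1 the median was -0.03 (range -0.55 to 0.25). These points share a library and its scaling, and they span both groups, so the difference between groups enters the correlations. Pairs of other genes were not computed. A different measure, the correlation with the members' mean, had a median of 0.81 over all 8118 other tested genes. Likeness to that mean was thus common in the table. Predicted gene models (Gm and Rik symbols) and IDs without a symbol were left out of the next ranking. By correlation with that mean, Zc3h3, Spag7 and Snx3 were the 3 most alike (r = 0.995, 0.995 and 0.994 over 8 libraries). Their log2 fold changes were -0.52, -0.48 and -0.41, a direction that follows from how they were chosen, since the correlation was taken over the same libraries.

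Because 6950 of the 8127 tested genes had a fold change below 0, the members were also compared after scaling libraries to their typical gene. Median-of-ratios scaling divides each library by the median ratio of its genes to their means, with factors of 0.785 to 1.05 for WC and 1.02 to 1.22 for obese libraries, and moves the median of all tested genes to -0.01. After it, limma called 0 of the 9 members (2 at an unadjusted p under 0.05, Dlat and Idh3a), where 0.566% of all tested genes were called lower and 1.24% higher. In the same fit, 2469 of all 8127 tested genes had an unadjusted p under 0.05. Idh3a was then at -0.27 (95% interval -0.50 to -0.045, limma adjusted p = 0.121) and Dlat at -0.30 (-0.59 to -0.014, limma adjusted p = 0.151). Pdhb and Mdh2 turned to 0.10 and 0.046, Fh1 moved to 0.37 (-0.10 to 0.83), and Pdha1, Dld, Cs and Ogdh lay between -0.10 and -0.08. Relative to the median of all tested genes on TPM as deposited, Idh3a was at -0.32, Dlat at -0.31, Mdh2 at -0.021, Pdhb at 0.041 and Fh1 at 0.31.

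**Figure D2:**
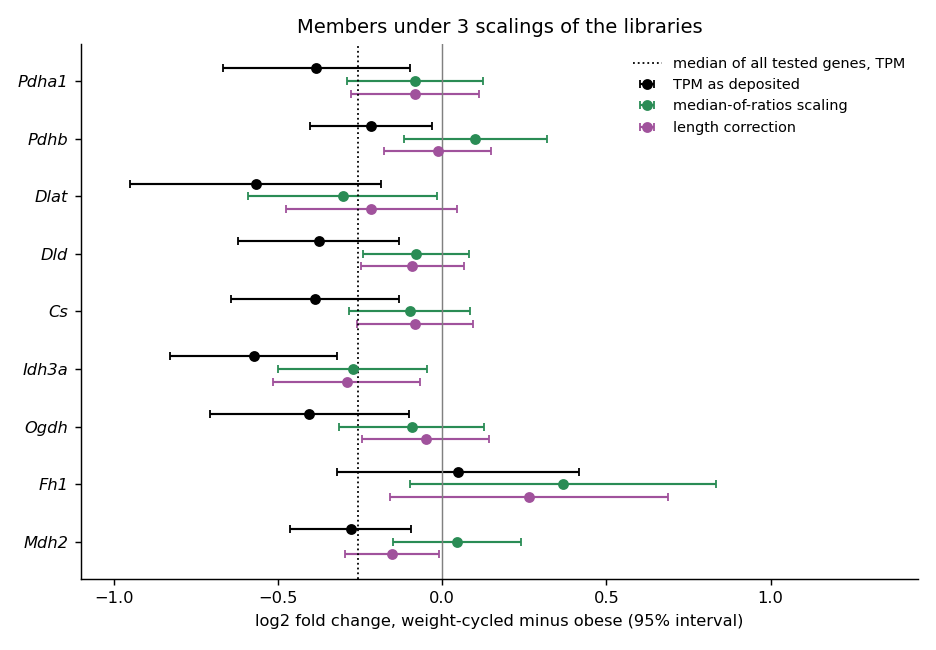
Log2 fold change, WC minus obese, of the 9 genes (points) with 95% intervals from limma (bars), for TPM as deposited, after median-of-ratios scaling and after taking out the dependence on transcript length within libraries. The dotted line marks the median of all tested genes on deposited TPM, -0.26, near which Mdh2 and Pdhb lie, with Idh3a and Dlat to its left and Fh1 to its right.

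Transcript length was related to how far genes lay from their own mean in a library. Across genes, Spearman's rho was -0.399 to -0.283 in WC replicates 2, 3 and 4 and 0.345 in WC replicate 1, against 0.183 to 0.375 in obese replicates 1 to 4. After removal of this trend, limma called 0 of the 9 members (2 at an unadjusted p under 0.05, Idh3a and Mdh2), where 1.53% of all tested genes were called lower and 1.78% higher. In the same fit, 2219 of all 8127 tested genes had an unadjusted p under 0.05. The length used for Mdh2 was 648 bases, the shortest among the 9 members. It is a median over annotated protein-coding transcripts and may not be the length of the transcript present in islets. The corrected value of Mdh2 rests on that length. Idh3a was at -0.29 (limma adjusted p = 0.108), Dlat at -0.22 (limma adjusted p = 0.250) and Fh1 at 0.26 (limma adjusted p = 0.382). Idh3a was below 0 in all 18 alternatives planned for it, between -0.63 and -0.27, and passed the test in 8 of them. Dlat was below 0 in all 17 it could be tested in, between -0.71 and -0.22, and passed in 6.

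Leaving out each library in turn kept the fold changes of all members but Fh1 below 0, while the number past the threshold varied. Over the 8 fits, Idh3a ranged from -0.63 to -0.47, Dlat from -0.71 to -0.43, Cs from -0.46 to -0.31, Dld from -0.43 to -0.29 and Mdh2 from -0.30 to -0.23. On TPM as deposited, limma called 0 of the 9 members when WC replicate 2, 3 or 4 or obese replicate 1, 2 or 3 was left out, with 7 or 8 of the 9 at an unadjusted p under 0.05. Over all tested genes this held for 2670 of 8010 (without obese replicate 1) to 3459 of 8076 (without obese replicate 3). Of all tested genes, 0.352% were then called lower and 0.121% higher without WC replicate 2, 0.597% and 0.268% without WC replicate 3, and 0.0852% and 0.0365% without WC replicate 4. These shares were 0% and 0% without obese replicate 1, 0.262% and 0.2% without obese replicate 2, and 0.31% and 0.111% without obese replicate 3. Without obese replicate 4, Cs, Dlat, Dld, Idh3a and Ogdh were called lower, where 20.6% of all tested genes were lower and 0.69% higher. Without WC replicate 1, all members but Pdhb and Fh1 were called lower, 7 in all, where 54.4% of all tested genes were lower and 3.35% higher. Fh1 turned to -0.11 without WC replicate 4 and to -0.013 without WC replicate 3, and stood at 0.19 without WC replicate 1, none of them past the test. With median-of-ratios scaling and without WC replicate 1, a combination chosen after the data were seen, limma called Fh1 higher at 0.58 (SE 0.138, adjusted p = 0.0117) and Dlat lower at -0.39 (SE 0.124, adjusted p = 0.0354), where 20.0% of all tested genes were called higher and 17.9% lower. With length correction and without that library, Fh1 was called higher at 0.45 (limma adjusted p = 0.0395) and 0 members lower, where 12.8% of all tested genes were higher and 13.5% lower. Quantile normalization left 0 members called (2 at an unadjusted p under 0.05), where 1.53% of all tested genes were lower and 2.13% higher. In the same fit, 2246 of all 8127 tested genes had an unadjusted p under 0.05. With totals that leave out hormone, acinar and mitochondrially encoded genes, 4 members were lower, where 18.0% of all tested genes were lower and 1.32% higher. There Cs and Dlat lay just outside the threshold (limma adjusted p = 0.0514 and 0.0531) and Ogdh inside it (limma adjusted p = 0.0479). With a filter at a mean of 5 TPM, 6 of the 8 members tested were lower (Cs, Dld, Idh3a, Mdh2, Ogdh and Pdha1), where 28.8% of all tested genes were lower and 2.27% higher. Array weights, which count deviating libraries less, gave 8 lower, all but Fh1, where 55.4% of all tested genes were lower and 3.64% higher. With the replicate number as a block 6 were lower, where 33.9% of all tested genes were lower and 1.83% higher.

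Ratios of transcripts within a library do not depend on its scaling and are given as values with no test. They still carry the relation to transcript length where partners differ in length, as Dlat, Pdha1 and Pdhb do at 4035, 2848 and 1513 bases. After length correction the log2 fold changes of these genes lay closer together, at -0.22 for Dlat, -0.083 for Pdha1 and -0.013 for Pdhb. Pdha1 stood to Pdhb, its partner in a fixed subunit pair, as 0.554, 0.454, 0.365 and 0.343 to 1 in WC replicates 1 to 4, against 0.538, 0.491, 0.448 and 0.460 to 1 in obese replicates 1 to 4. WC replicates 3 and 4 were below every obese library, and WC replicate 1 above every one. Dlat to Pdhb was 0.270, 0.160, 0.207 and 0.116 in WC and 0.285, 0.241, 0.249 and 0.232 in obese libraries, with 3 of the 4 WC values below the obese range. Idh3a to Idh3b, which is a regulatory subunit gene of the same enzyme, was 0.719, 0.568, 0.748 and 0.835 in WC and 0.912, 0.776, 0.980 and 0.920 in obese libraries. Only WC replicate 4 reached into the obese range, above obese replicate 2. Fh1 to Mdh2, the genes of successive steps, was 0.420, 0.559, 0.669 and 0.838 in WC and 0.434, 0.508, 0.524 and 0.451 in obese libraries, where WC replicates 2, 3 and 4 exceeded every obese value and WC replicate 1 lay below them.

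Ogdhl, a paralogue of Ogdh that encodes a like first enzyme, was added after its values were seen. It was at 6.04, 2.74, 4.29 and 4.62 TPM in WC and at 7.99, 8.80, 7.77 and 6.64 TPM in obese replicates 1 to 4, without overlap, and fell by 0.73 (SE 0.168, limma adjusted p = 0.0321). After median-of-ratios scaling it was at -0.45 (limma adjusted p = 0.0700) and after length correction at -0.39 (limma adjusted p = 0.0625). Its ratio to Ogdh was 0.346, 0.256, 0.324 and 0.299 in WC libraries against 0.413, 0.409, 0.418 and 0.408 in obese libraries, and the groups did not overlap. The ratio of Dlst, the second enzyme of the 2-oxoglutarate dehydrogenase complex, to Ogdh overlapped between the groups, at 0.465 to 0.625 in WC and 0.484 to 0.594 in obese libraries.

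**Figure D3:**
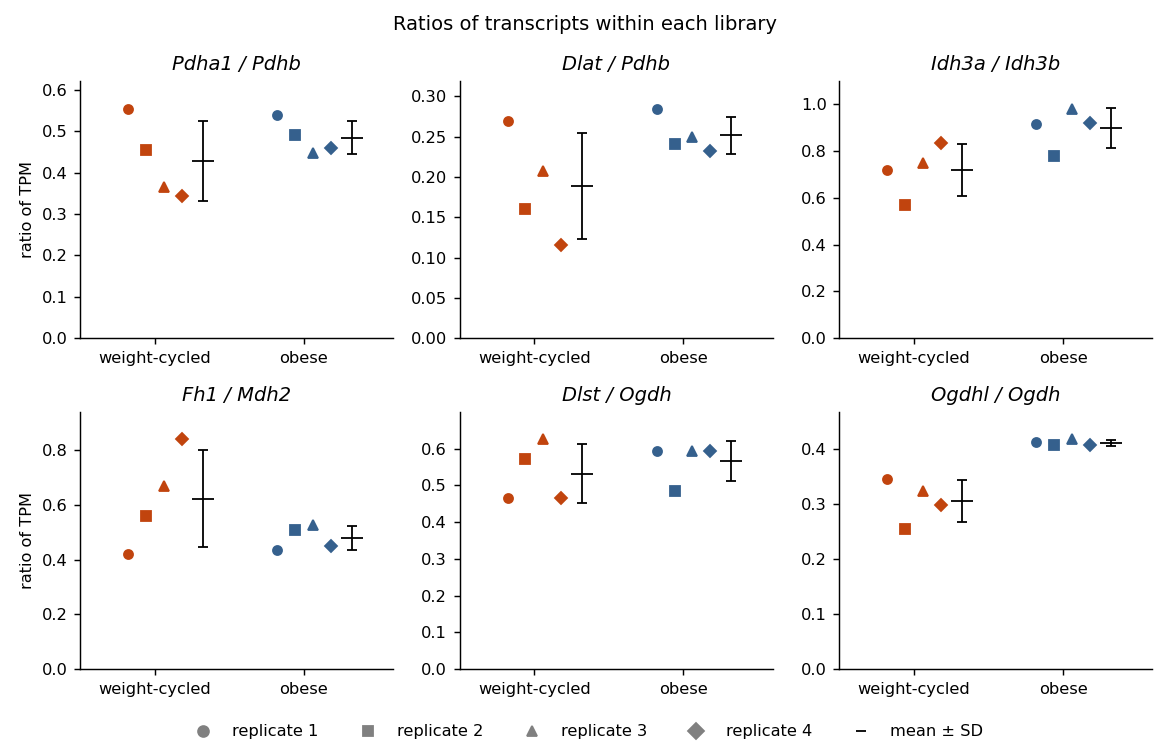
Ratios of TPM between 2 genes in the same library (vertical axes, from 0) in WC and obese islets, with marker shapes for the replicate number and bars for the mean ± SD of 4 libraries. Ogdhl to Ogdh does not overlap between the groups (0.256 to 0.346 in WC, 0.408 to 0.418 in obese libraries), and the other 5 ratios do.

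Of 27 further genes of pyruvate use and the cycle, 24 were tested, and 6 were lower in WC islets, 0 higher and 18 did not pass, where 23.9% of all tested genes were lower and 1.21% higher. The share called lower was thus near that of the whole table, and the median log2 fold change was -0.19 against -0.26 over all tested genes. Of 10 other cycle subunits, 5 were lower, namely Sdha, Suclg2, Dlst, Sucla2 and Idh3b, and 5 did not pass, with a median of -0.28. Sdha, the flavoprotein subunit of succinate dehydrogenase, was at 23.0, 15.1, 19.1 and 14.6 TPM in WC and at 33.0, 27.8, 24.7 and 24.4 TPM in obese libraries, without overlap (log2 fold change -0.60, SE 0.146, limma adjusted p = 0.0334). The genes of its partner subunits did not pass, with Sdhb at -0.17, Sdhc at -0.07 and Sdhd at 0.03 (limma adjusted p = 0.148, 0.494 and 0.794). Dlst, which shares Dld with pyruvate dehydrogenase, fell by 0.47 (SE 0.109, limma adjusted p = 0.0321). Against -0.57 for Idh3a, its partner subunit genes Idh3b and Idh3g were both at -0.28 (limma adjusted p = 0.0465 and 0.0542), a gap that was not tested.

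Of the 7 tested genes that feed, hold together or regulate pyruvate dehydrogenase, limma called 0 (2 at an unadjusted p under 0.05, Pdk2 and Pdk3). Of all tested genes, 23.9% were called lower and 1.21% higher, and 3993 of 8127 had an unadjusted p under 0.05. Pdhx, the binding protein that holds Dld to the Dlat core, was at 1.08 ± 0.235 TPM in WC and 1.24 ± 0.106 TPM in obese islets (SD, n = 4 each; log2 fold change -0.11, limma adjusted p = 0.437). The subunits of the mitochondrial pyruvate carrier were at -0.19 for Mpc1 and 0.04 for Mpc2 (limma adjusted p = 0.128 and 0.778). Of 7 kinase and phosphatase genes, Pdk1, Pdk2, Pdk3 and Pdp1 were tested, with a median of -0.20. Pdk2, a kinase that inactivates the complex, was at 2.64 ± 0.745 TPM in WC and 3.66 ± 0.508 TPM in obese islets (SD, n = 4 each; log2 fold change -0.37, limma adjusted p = 0.0686). Pdk4, Pdp2 and Pdpr had mean levels under 1 TPM and were not tested, with Pdk4 at 0.364 to 0.834 TPM in WC and 0.544 to 1.43 TPM in obese libraries.

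Among 4 NADP-linked and cytosolic isozymes, Idh2, the mitochondrial NADP-linked isocitrate dehydrogenase, fell by 0.47 (SE 0.118, limma adjusted p = 0.0337) and 3 did not pass. Mdh1, the cytosolic counterpart of Mdh2, was at 58.6 ± 4.48 TPM in WC and 57.0 ± 6.01 TPM in obese islets (SD, n = 4 each; log2 fold change 0.04, limma adjusted p = 0.745). Of 3 lipoate attachment genes, which supply the cofactor of Dlat and Dlst, limma called 0 (0 at an unadjusted p under 0.05), with Lias, Lipt1 and Lipt2 at -0.14, -0.20 and 0.12. In the same fit, 3993 of all 8127 tested genes had an unadjusted p under 0.05. After median-of-ratios scaling limma called 0 of the 24 (6 at an unadjusted p under 0.05), where 0.566% of all tested genes were lower and 1.24% higher. The unadjusted p was under 0.05 for 2469 of all 8127 tested genes. After length correction limma also called 0 (7 at an unadjusted p under 0.05), where 1.53% of all tested genes were lower and 1.78% higher. There, 2219 of all 8127 tested genes had an unadjusted p under 0.05. Sdha was at -0.28 with median-of-ratios scaling (limma adjusted p = 0.102) and at -0.35 with length correction (limma adjusted p = 0.0692).

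**Figure D4:**
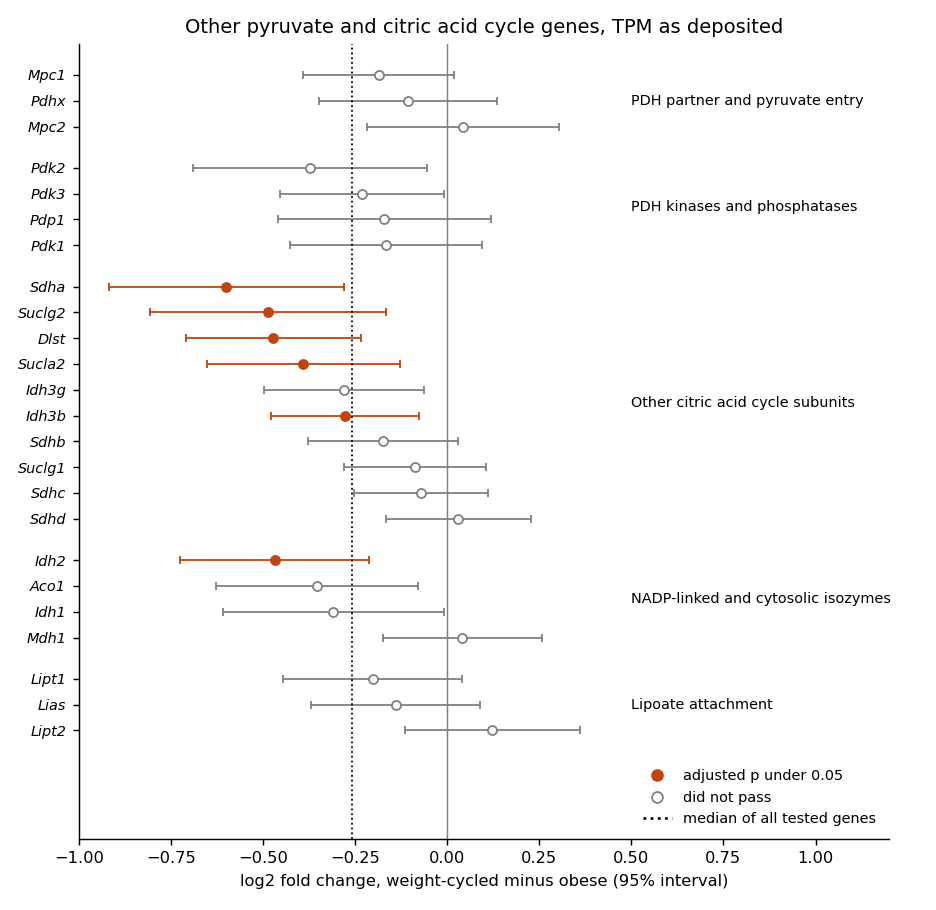
Log2 fold change, WC minus obese, of 24 further pyruvate and citric acid cycle genes on TPM as deposited (points) with 95% intervals from limma (bars), grouped by role. The 6 filled points passed the test, all below 0 (Sdha, Suclg2, Dlst, Sucla2, Idh3b and Idh2), and the dotted line marks the median of all tested genes, -0.26.

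The start regions of these genes were read for 8 of the 9 members, all but Idh3a, from RefSeq (build GRCm38.p6) as the 250 bases before the annotated start, 5′ to 3′ on the gene's strand. These 3 are shown, since Dlat and Fh1 had the lowest and the highest fold change among these 8 and the Pdhb window held the most boxes of any single window. They lie at chr9:50659781-50660030 (Dlat), chr1:175625636-175625885 (Fh1) and chr14:8172993-8173242 (Pdhb), all on the minus strand. Capitals mark GC boxes (GGGCGG or its complement CCGCCC) and CCAAT boxes (CCAAT or ATTGG).
Dlat: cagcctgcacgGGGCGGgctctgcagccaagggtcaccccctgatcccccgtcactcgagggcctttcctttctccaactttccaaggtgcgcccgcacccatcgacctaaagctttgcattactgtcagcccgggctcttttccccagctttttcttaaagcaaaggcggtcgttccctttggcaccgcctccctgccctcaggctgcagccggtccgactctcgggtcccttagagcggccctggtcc
Fh1: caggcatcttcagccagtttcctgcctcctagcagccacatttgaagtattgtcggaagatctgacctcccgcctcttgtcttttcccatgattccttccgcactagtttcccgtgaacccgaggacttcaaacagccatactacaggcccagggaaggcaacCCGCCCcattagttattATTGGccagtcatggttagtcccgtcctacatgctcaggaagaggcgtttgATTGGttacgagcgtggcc
Pdhb: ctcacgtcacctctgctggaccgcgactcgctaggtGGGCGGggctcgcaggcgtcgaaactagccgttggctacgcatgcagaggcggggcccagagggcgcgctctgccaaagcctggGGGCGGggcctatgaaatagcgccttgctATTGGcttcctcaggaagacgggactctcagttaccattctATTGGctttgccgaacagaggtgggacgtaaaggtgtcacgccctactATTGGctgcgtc
A GC box was present for 6 of the 8 genes (Cs, Dlat, Fh1, Mdh2, Ogdh and Pdhb), against 32.7% of the 32851 windows of this length in the table, and a CCAAT box for 5 (Cs, Dld, Fh1, Ogdh and Pdhb), against 33.8%. Ogdh has several annotated starts and was counted if any of them held the letters searched for. The shares over all windows count each window singly, so they are not the same measure as the counts of genes. The Dlat window had 1 GC box and no CCAAT box, the Fh1 window 1 and 2, and the Pdhb window 2 and 3. The core letters of an NRF1 site (GCATGCGC, either strand) were found for Ogdh alone of the 8, against 2.26% of all windows. The letters of an estrogen-related receptor element (TCAAGGTCA, either strand) were in none of the 8 and in 0.387% of all windows, and those of a TATA box (TATAAA, either strand) in none of the 8 and in 12.4%. A match describes letters in a window, not binding.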

How the data were processed

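The authors deposited gene-level TPM for 8 islet libraries, and the submitters' processing notes name Salmon 1.5.2 and mm10. Neither the annotation nor the step from transcripts to genes is stated. Totals over the 35596 genes ran from 999930 to 999949 per library, so levels are relative to the rest of a library, and depth is unknown. Symbols were found for 35527 gene IDs. Positions and transcript lengths are those of GENCODE M21 (GRCm38, which is mm10), with length the median over a gene's protein-coding transcripts.

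Genes with a mean of at least 1 TPM were put through limma 3.58.1 (R 4.3.3; moderated two-sided test with trend) as log2(TPM + 1), with Benjamini-Hochberg adjustment at 0.05 over all genes tested. Fold changes on this scale understate changes of low genes. The fit was run on simulated data drawn gene by gene, with no library-wide shift and no length trend. That run cannot judge the fit where those features matter. The members, gene lists and tests were chosen with earlier results of these data known. Genes named were the 9 members, the related lists, the 3 genes most alike over the libraries, genes that overlap or copy a member, and Ogdhl. A gene of the related lists is not reported here and is left out of their counts. Alternatives were pseudocounts of 0.1 and 5, no filter, a filter at 5 TPM, quantile or median-of-ratios scaling, totals that leave out hormone, acinar and mitochondrially encoded genes, length correction (loess of span 0.5), a replicate block, array weights and leaving out each library.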

Additional observations from a re-analysis of the deposited data

Results flagged for a closer look

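Dixon's ratio, which sets the gap of the extreme value against the whole range, was computed for 114 sets of 4 libraries (members, related and most alike genes, ratios and marker sums). The critical value was passed in 4, where chance gives about 5.7. Idh3g, the gamma subunit gene of the enzyme of Idh3a, was at 24.8 TPM in WC replicate 1 against 20.6 to 20.7 TPM in the other WC libraries. The log2 ratio of Dlst to Ogdh was -1.05 in obese replicate 2 against -0.76 to -0.75 in the other obese libraries. The summed level of 8 acinar markers was 6890 TPM in WC replicate 1 against 2950 to 3332 TPM in its group. The summed level of 5 macrophage markers was 8.30 TPM in WC replicate 2 against 5.01 to 5.37 TPM. None of the 9 members was among the 4.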

How the results depend on the processing

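Counts are given for members, related genes and all tested genes. With limma, lower calls were 5, 6 and 1946 on TPM as deposited. They were 0, 0 and 46 with median-of-ratios scaling and 0, 0 and 124 with quantile normalization. Length correction gave 0, 0 and 124, and array weights 8, 13 and 4499. With no filter on low values, 9 members, 27 related genes and 19482 genes in all were tested, against 9, 24 and 8127 as deposited. Lower calls there were 0, 0 and 0, with 8, 12 and 5686 at an unadjusted p under 0.05 in either direction. A filter at a mean TPM of 5 gave 6, 7 and 1001, of 8, 15 and 3480 tested. Totals without hormone, acinar and mitochondrially encoded genes gave 4, 4 and 1460. Higher calls were 0, 0 and 98 as deposited, and over all genes 0 with no filter, 173 with quantile normalization and 296 with array weights. The weight-cycled library of replicate number 1 was also left out under 2 scalings, chosen after the data were seen, with 8064 genes tested. Median-of-ratios scaling then gave 1, 2 and 1444 lower and 1, 7 and 1609 higher. Length correction gave 0, 3 and 1086 lower and 1, 4 and 1032 higher. Leaving out each library in turn gave 0 to 7 members, 0 to 11 related genes and 0 to 4390 genes lower, and 0 to 270 genes higher. The replicate block gave 6, 7 and 2754 lower and 149 genes higher, but same-numbered libraries did not deviate together (correlations of 0.21, -0.276, -0.052 and 0.231), so the numbers were not taken as pairs.

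Pdhb (0.10) and Mdh2 (0.046) changed sign with median-of-ratios scaling, as did Pdhx (0.073), Mpc1 (0.13), Pdk1 (0.058), Pdk3 (0.019), Pdp1 (0.031), Idh3b (0.030), Idh3g (0.038), Suclg1 (0.23), Sdhb (0.15), Sdhc (0.25) and Lias (0.15). With quantile normalization Pdhx (0.16), Pdk1 (0.11), Pdk3 (0.051), Pdp1 (0.10), Suclg1 (0.10), Sdhc (0.075), Lias (0.10) and Lipt1 (0.065) did, and with length correction Pdhx (0.16), Pdk1 (0.22), Pdk3 (0.036), Pdp1 (0.11), Suclg1 (0.052), Sdhc (0.072) and Lias (0.086). Mdh1 turned to -0.038 with array weights. With each library left out, Fh1 ranged from -0.11 to 0.19, Mpc2 from -0.073 to 0.12, Sdhd from -0.030 to 0.084 and Mdh1 from -0.023 to 0.093. The causes were not tested. Dlat was not tested with the filter at 5 TPM.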
